A study of Mus musculus with 4 samples.

Results

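The nuclei described here are astrocytes of the mouse lateral septum in which no Dkk3 transcript was captured. They were chosen by their own counts of unique molecular identifiers (UMIs, each standing for 1 captured RNA molecule). A nucleus had to pass the quality limits, to carry at least 4 UMIs from at least 2 of the astrocyte genes Slc1a3, Gja1, Aqp4, Atp13a4 and Gli3, making up at least 0.2% of its UMIs, and to hold 0 UMIs of Dkk3. Of 55660 quality-filtered nuclei, 5377 met this rule. The study compared single nuclei from the lateral septum of male mice with different immune and genetic backgrounds, aged 6 to 8 weeks by the labels, while the methods give the upper of these ages at purchase, and tissue of 3 mice was pooled for each library. C57BL/6JNifdc mice (called C57J) gave 2 libraries, C57J 1 in batch 1 and C57J 2 in batch 2. BALB/c mice and nude mice, which lack Foxn1 function and so T cells and share the BALB/c background, gave 1 library each, both in batch 2. No animal was treated. A pooled library hides the spread between mice, and the nude and BALB/c groups have no replicate of their own.

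Astrocytes are the glia that take up glutamate, GABA and glycine from the space around synapses, buffer potassium, couple to each other through gap junctions and contact blood vessels. They differ between brain regions, because the progenitors of each region pass on a set of patterning transcription factors and because signals such as Sonic hedgehog act on them locally. Dkk3 encodes a secreted glycoprotein of the Dickkopf family. Lrig1 encodes a membrane protein that restrains receptor tyrosine kinases such as the epidermal growth factor receptor, and Ranbp3l encodes a Ran-binding protein that exports Smad proteins of the BMP pathway from the nucleus. The study used these 3 genes to mark astrocyte subsets.

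The share of astrocytes without Dkk3 was 10.4% for C57J 1 (1549 of 14836, exact Clopper-Pearson 95% interval 9.95 to 10.9). It was 9.35% for C57J 2 (1316 of 14074, interval 8.87 to 9.84), 9.06% for nude (1329 of 14670, interval 8.60 to 9.54) and 9.79% for BALB/c (1183 of 12080, interval 9.27 to 10.3). The mean share in nude and BALB/c differed from that in C57J by a log2 ratio of -0.07, less than the difference between the C57J libraries. BALB/c was also the deepest library. With every nucleus thinned to 1000 UMIs it was 6.53%, 5.21%, 5.66% and 8.93%, and the log2 ratio turned to 0.31, with BALB/c highest. With 2 libraries against 2, an exact permutation test could not have reached p = 0.05, and none was run. The intervals cover counting error only.

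All values that follow without library names are in the order C57J 1, C57J 2, nude, BALB/c. The label was checked against 12 astrocyte genes that the rule did not use. Their summed level was 13085, 10783, 10426 and 14066 CPM (UMIs of a gene per 1000000 UMIs, over all chosen nuclei of a library added up). In the nuclei outside the astrocyte rule the same genes summed to 1136, 829, 805 and 652 CPM. Slc1a2, the main astrocytic glutamate transporter, led the list in every library, and none of the 12 genes was at 0. Markers of other cells were also present. The 8 neuronal genes, led by Meg3, summed to 3688, 4122, 4905 and 2349 CPM, against 15875, 14961, 16178 and 15599 CPM in the other nuclei. The 6 oligodendrocyte genes summed to 1509, 1539, 1096 and 1091 CPM, above the 1277, 1355 and 794 CPM of the other nuclei in C57J 1, C57J 2 and nude and below their 1600 CPM in BALB/c, and no gene of these lists was at 0. Genes of oligodendrocyte precursors, led by Tnr, summed to 321, 320, 287 and 164 CPM, against 679, 684, 734 and 788 CPM in the other nuclei. Microglial genes summed to 116, 135, 125 and 97.6 CPM, against 90.3, 105, 82.4 and 95.4 CPM. Vascular genes, led by Pdgfrb or, in nude, by Notch3, summed to 95.9, 124, 128 and 124 CPM, against 19.0, 22.8, 19.9 and 20.1 CPM, with the endothelial genes Flt1 and Cldn5 at 0 in nude. Microglial and vascular genes were thus higher in the chosen nuclei than in the other nuclei of all 4 libraries. The part of RNA from other cells in the results was not tested.

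Dkk3 lies on chromosome 7 (112116017 to 112159057, GRCm38). A nucleus without a Dkk3 UMI is not a nucleus without Dkk3, since the count depends on depth. Chosen nuclei had a median of 2788, 2137, 2234 and 4431 UMIs. Among all nuclei that met the 5-gene rule, 20.4%, 13.0%, 15.1% and 40.2% had a Dkk3 UMI. After every nucleus was thinned to 1000 UMIs, which left out 5, 8, 8 and 2 astrocytes, the shares were 8.75%, 6.25%, 7.32% and 13.7%. Oligodendrocytes had 1.31%, 0.974%, 1.15% and 0.674% at the same thinned depth, below the astrocyte share in each library. The part of free RNA in these counts was not tested. Just outside the rule lay 1118 nuclei with a single Dkk3 UMI. At the other limit, 257 chosen nuclei had exactly 4 UMIs of the 5 genes, and 96 nuclei without Dkk3 had 3 and were not taken.

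Before the comparisons, 2 features of the libraries matter. The BALB/c library was the deepest and stood apart in the share of nuclei with Dkk3. It also held more nuclei carrying genes of meningeal fibroblasts, the collagen-producing cells of the brain's covering. Counted over Dcn, Lum, Col3a1, Slc6a13, Bmp6 and Cemip, a list chosen after the values were seen, nuclei with at least 2 UMIs from at least 2 of these genes numbered 3, 3, 1 and 21, the last being 1.78% of the 1183 nuclei of BALB/c (interval 1.102 to 2.70). Of the 21, 12 had Ranbp3l and no Lrig1. Results are given without these nuclei where that changed a call. Between any pair of libraries, 29 to 63 cell barcodes were shared, at most 0.478% of the smaller library.

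Lrig1 (chromosome 6, 94604529 to 94700158, GRCm38) and Ranbp3l (chromosome 15, 8967949 to 9067335) divided the astrocytes without Dkk3. In C57J 1, 426 nuclei had Lrig1 UMIs only, 312 Ranbp3l UMIs only, 135 both and 676 neither. C57J 2 had 302, 239, 77 and 698 in the same order, nude had 340, 211, 87 and 691, and BALB/c had 430, 216, 222 and 315. As shares, nuclei with Lrig1 only were 27.5%, 22.9%, 25.6% and 36.3%, and nuclei with Ranbp3l only were 20.1%, 18.2%, 15.9% and 18.3%. Among astrocytes with a Dkk3 UMI these shares were 21.1%, 15.8%, 24.2% and 27.8% for Lrig1 only and 17.6%, 16.3%, 13.6% and 20.2% for Ranbp3l only. The library with the largest share with both genes, BALB/c, was also the deepest. At 1000 UMIs a nucleus, Lrig1 was found in 15.7%, 15.8%, 15.7% and 22.6% of them and Ranbp3l in 12.3%, 11.2%, 11.1% and 14.2%. Oligodendrocytes had Lrig1 in 1.84% to 2.40% and Ranbp3l in 0.0613% to 0.556% at that depth, with median UMI counts before thinning of 2473, 2032, 1847 and 3927. Among astrocytes without Dkk3, BALB/c was the highest for Lrig1, with an interval (20.3 to 25.1) above those of the other 3 libraries. The Ranbp3l intervals of all 4 libraries overlapped. With astrocytes that had Dkk3 included, at the same depth, the BALB/c interval for Lrig1 was 17.0 to 20.5. That interval lay above those of both C57J libraries but overlapped that of nude, 13.5 to 17.2. These intervals cover counting error only, and BALB/c has no replicate, so a difference between groups was not tested.

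**Figure D1:**
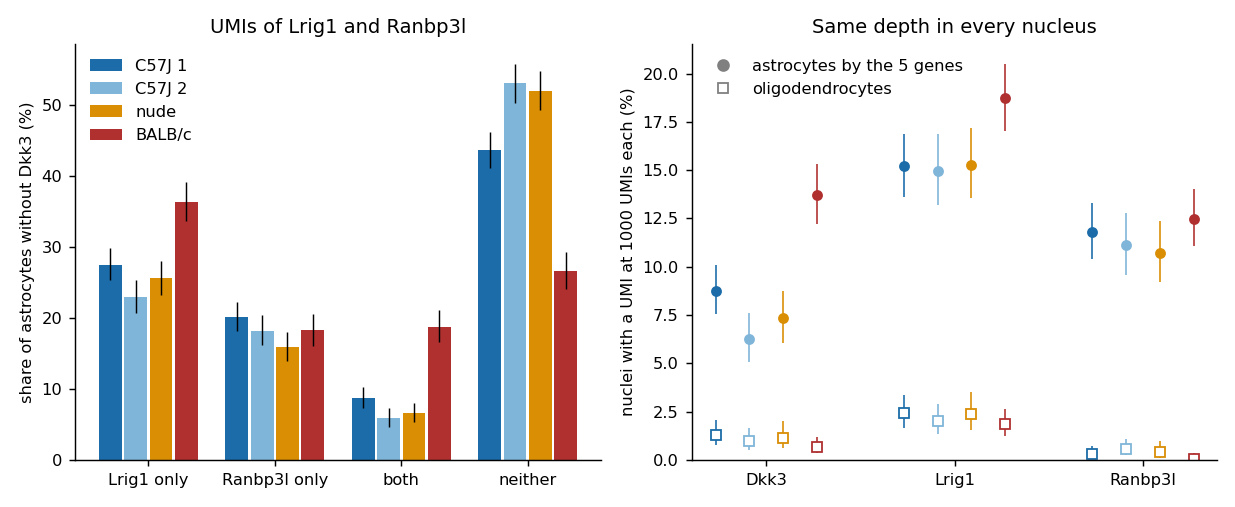
Left, share of astrocytes without Dkk3 (%) with UMIs of Lrig1 only, Ranbp3l only, both or neither in each library; bars are shares and lines are exact 95% intervals. Right, nuclei with a UMI of Dkk3, Lrig1 or Ranbp3l (%) after thinning to 1000 UMIs, in all astrocytes by the 5 genes (filled circles) and in oligodendrocytes (open squares), where BALB/c is highest for Dkk3 at 13.7%.

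Lrig1 and Ranbp3l were found together less often than the product of their shares. In C57J 1, 135 nuclei had both against 162 from the product, a ratio of 0.834. The other libraries, C57J 2, nude and BALB/c, had ratios of 0.846, 0.909 and 0.920, and on thinned counts the 4 ratios were 0.736, 0.476, 0.821 and 0.737, the lowest resting on 11 nuclei with both genes. The direction was the same in all 4 libraries and at both depths. This is a description, with no test, since Lrig1 and Ranbp3l define the groups.

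To ask what else separated the groups marked by Lrig1 and Ranbp3l, the UMIs of nuclei with Lrig1 only and of nuclei with Ranbp3l only were summed per library and compared with the library as a block. The genes that placed the nuclei in a group were left out of the test. Below it is called the regional comparison, but no position in the septum was measured. Where the nuclei of each group lay was not tested. Of 9802 genes tested by edgeR's quasi-likelihood test, 298 (3.04%) were called, which required an adjusted p (Benjamini-Hochberg) under 0.05 and a log2 fold change beyond 0.5 in size. Of these, 144 (1.47%) were higher in Lrig1 nuclei and 154 (1.57%) in Ranbp3l nuclei. Direction was the same in all 4 libraries for 279 of the 298, against 1999 of the 9796 tested genes that were not Y-linked or Xist (20.4%). The test on these libraries favours genes that differ alike in each, so this agreement is no separate evidence. Median UMIs were 2864, 2255, 2427 and 4622 for Lrig1 nuclei and 3069, 2363, 2350 and 4237 for Ranbp3l nuclei. Neuronal markers summed to 3562, 3819, 4760 and 2228 CPM and to 3533, 4166, 4346 and 2342 CPM. Ependymal genes, led by Dnah12, summed to 72.7 CPM in the Lrig1 nuclei of C57J 2 against 22.2 CPM in its Ranbp3l nuclei and lay between 9.77 and 20.04 CPM in both groups of the other libraries. Their part in the result was not tested.

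Among genes higher in Lrig1 nuclei, B230323A14Rik had the largest fold change of those with at least 20 CPM. Its level in Lrig1 nuclei was 54.7, 37.8, 91.6 and 72.6 CPM, and in Ranbp3l nuclei 0.984, 0, 5.86 and 4.93 CPM. The log2 difference was 4.41 ± 0.30 (SE, n = 4 libraries, edgeR adjusted p = 2.66e-10), and the libraries of the 2 groups did not overlap. B230323A14Rik is annotated as an antisense RNA on chromosome 9 (69758740 to 69830845) that overlaps Foxb1 on the other strand. How strand was used in counting was not given in the sources used here, so reads of the pair cannot be told apart with certainty.

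Slc6a9 encodes GlyT1, the glycine transporter of astrocytes. It stood at 70.9, 48.9, 60.3 and 77.4 CPM in Lrig1 nuclei and at 10.8, 6.35, 17.6 and 14.8 CPM in Ranbp3l nuclei of the same libraries. The difference was 2.42 ± 0.20 on the log2 scale (edgeR adjusted p = 9.31e-09). Every Lrig1 value was above every Ranbp3l value. Slc6a11, which encodes the GABA transporter GAT3, had 886, 685, 845 and 978 CPM against 439, 373, 461 and 456 CPM, a log2 difference of 0.97 ± 0.07 (edgeR adjusted p = 1.32e-09). Abat, the enzyme that breaks down GABA, was also called higher in Lrig1 nuclei (0.53 ± 0.10), though not without BALB/c. In the opposite direction, Slc1a2 had 5321, 4662, 4425 and 6073 CPM in Lrig1 nuclei and 7675, 6591, 6895 and 7939 CPM in Ranbp3l nuclei, a log2 difference of -0.52 ± 0.06 (edgeR adjusted p = 8.53e-07). It lies just past the fold limit and was not called without nude, with no filter on low counts or after thinning. Of 9 uptake genes, all tested, 3 were higher, 1 lower and 5 not called in Lrig1 nuclei, beside 3.04% called of all genes. Glul, the glutamine synthetase gene, differed by -0.07 ± 0.07. The median of the list was 0.01, against 0.00 over all genes tested.

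Of 19 tested receptor genes, 3 were higher in Lrig1 nuclei, 2 lower and 14 not called, beside 3.04% called of all genes tested. The list median was 0.10, against 0.00 over all genes. Gabbr2, a subunit of the GABA-B receptor, had 388, 379, 387 and 442 CPM in Lrig1 nuclei and 158, 135, 149 and 110 CPM in Ranbp3l nuclei (1.55 ± 0.11, edgeR adjusted p = 3.05e-10). Gria1, an AMPA receptor subunit, was 0.99 ± 0.09 higher, and Shisa9, which encodes an auxiliary protein of AMPA receptors, was 1.66 ± 0.11 higher, with 280 to 358 CPM in Lrig1 nuclei and 73.0 to 135 CPM in Ranbp3l nuclei. Ednrb, the endothelin B receptor, was 0.52 ± 0.08 higher and was not called without BALB/c or without the nuclei carrying fibroblast genes. Lower in Lrig1 nuclei were the metabotropic glutamate receptor gene Grm3 (-0.53 ± 0.06) and the NMDA receptor subunit gene Grin2c (-0.75 ± 0.09). Grm3 had 917, 962, 960 and 777 CPM in Lrig1 nuclei and 1433, 1246, 1378 and 1124 CPM in Ranbp3l nuclei, with no overlap, but was not called without C57J 1. Grm5 differed by 0.10 ± 0.07.

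**Figure D2:**
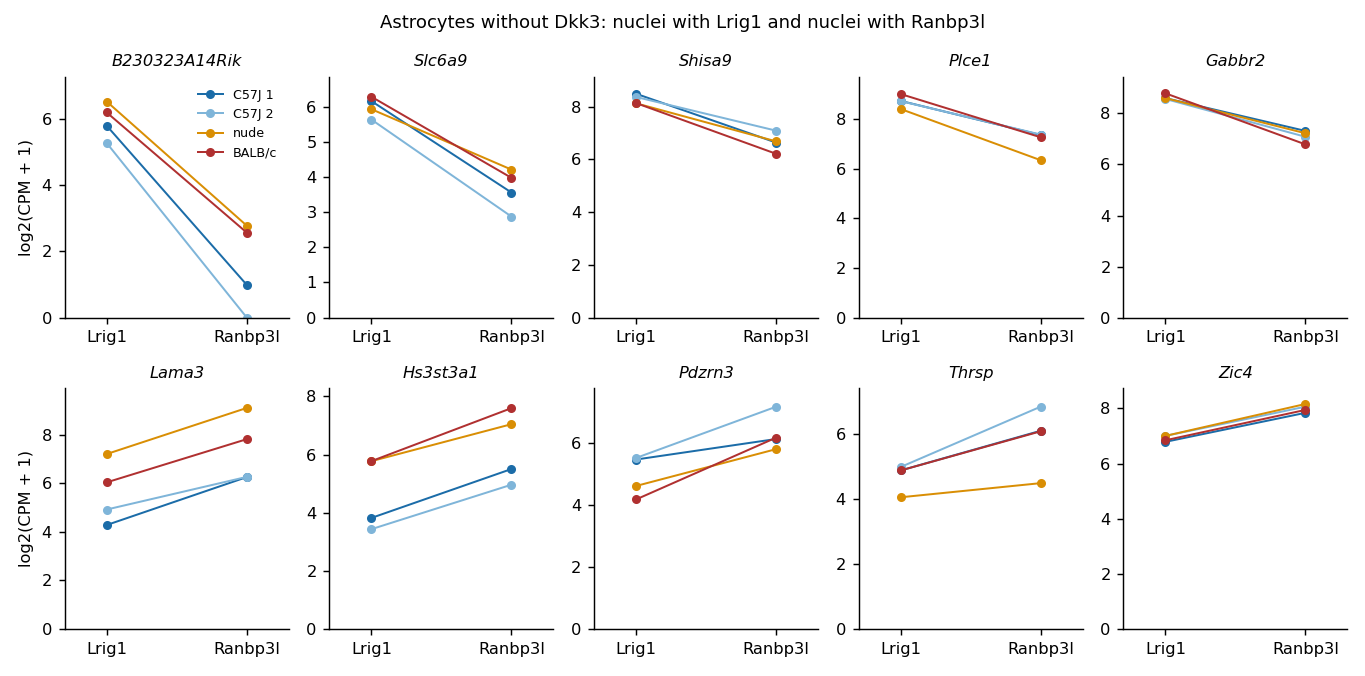
Level, as log2(CPM + 1), of 10 called genes in the summed nuclei with Lrig1 only (left of each panel) and Ranbp3l only (right), with 1 line per library. Every line falls for the 5 genes of the upper row and rises for the 5 of the lower row, and B230323A14Rik falls to 0 in C57J 2.

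Of the patterning transcription factors, 22 of 28 passed the filter on low counts, 2 were higher in Lrig1 nuclei, 8 were lower and 12 were not called, where 3.04% of all genes tested were called. The list median was -0.09, against 0.00 over all genes. Nr2f1, a nuclear receptor (COUP-TFI) that patterns the telencephalon, had 20.04, 35.0, 35.7 and 25.2 CPM in Lrig1 nuclei and 2.95, 6.35, 5.86 and 5.92 CPM in Ranbp3l nuclei, a log2 difference of 2.39 ± 0.30 (edgeR adjusted p = 5.13e-06). Nr2f1 overlaps the antisense RNA A830082K12Rik on the other strand of chromosome 13, so their reads cannot be told apart with certainty either. Meis1, a homeobox gene, was 0.82 ± 0.11 higher. The 8 genes on the Ranbp3l side were Zic1, Zic2, Zic4, Zic5, Emx2, Lhx2, Pax6 and Id4. Zic4 had 109, 127, 127 and 114 CPM in Lrig1 nuclei and 228, 267, 285 and 246 CPM in Ranbp3l nuclei (-1.104 ± 0.09, edgeR adjusted p = 5.35e-09), so that the groups did not overlap. Zic1 overlaps Zic4 on the other strand of chromosome 9 and differed by -0.61 ± 0.10. As for B230323A14Rik, reads of the overlapping pair cannot be told apart with certainty, so Zic1 and Zic4 may not be 2 separate calls. Zic proteins are zinc finger factors of the dorsal and medial forebrain.

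Emx2 and Lhx2 are homeobox genes of the embryonic telencephalon. Emx2 had 30.1, 36.4, 13.4 and 24.2 CPM in Lrig1 nuclei and 52.1, 47.6, 60.6 and 53.3 CPM in Ranbp3l nuclei (-1.04 ± 0.20, edgeR adjusted p = 0.00124). Lhx2 had 47.0, 32.2, 32.4 and 33.7 CPM against 58.0, 60.3, 64.5 and 89.8 CPM (-0.93 ± 0.17, edgeR adjusted p = 6.60e-04). Pax6 differed by -0.95 ± 0.17 and Id4, an inhibitor of helix-loop-helix factors, by -0.74 ± 0.09. Each of these 4 genes was lower in Lrig1 nuclei of all 4 libraries. Zic2 (-0.79 ± 0.23) and Zic5 (-0.77 ± 0.20) were low genes and lost their calls when single libraries were left out, Zic2 without C57J 1, nude or BALB/c or without the nuclei carrying fibroblast genes, and Zic5 without C57J 1 or nude, by DESeq2 or with 2 UMIs to place a nucleus.

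Sonic hedgehog acts through the receptor Ptch1, which is itself induced by the signal, as is the factor Gli1. All 10 genes of the pathway list were tested, and 2 were higher in Lrig1 nuclei, none lower, with a list median of 0.08. Of all genes tested, 1.47% were higher and the median was 0.00. Ptch1 had 546, 670, 607 and 940 CPM in Lrig1 nuclei and 287, 338, 358 and 433 CPM in Ranbp3l nuclei (0.96 ± 0.08, edgeR adjusted p = 4.99e-09), without overlap. Gli1 was higher by 0.76 ± 0.22 (edgeR adjusted p = 0.0411) in 3 of 4 libraries, with 35.7 and 39.1 CPM in the nude library, and was not called without C57J 1, C57J 2 or BALB/c or with 2 UMIs to place a nucleus. Gli2 differed by -0.06 ± 0.08.

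Of the receptor tyrosine kinase and Lrig family genes, 12 of 18 were tested, 2 were higher, 2 were lower, beside 3.04% called of all genes, and the median was 0.00, as over all genes. Erbb4, the neuregulin receptor, had 2138, 1801, 1707 and 1832 CPM in Lrig1 nuclei and 980, 1098, 1075 and 694 CPM in Ranbp3l nuclei (0.98 ± 0.09, edgeR adjusted p = 3.51e-08). The relative Lrig3 was 0.99 ± 0.23 higher, though not called with 2 UMIs to place a nucleus, and Lrig2 differed by -0.03 ± 0.13. Fgfr1 was lower (-0.64 ± 0.09). Errfi1, an inhibitor of the epidermal growth factor receptor, was called at -1.17 ± 0.30, but its Lrig1 and Ranbp3l values were 17.7 and 17.7 CPM in C57J 1, 16.8 and 12.7 in C57J 2, 21.2 and 29.3 in nude, and 17.1 and 85.8 in BALB/c. The call rested on BALB/c and was lost without that library and without the nuclei carrying fibroblast genes.

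**Figure D3:**
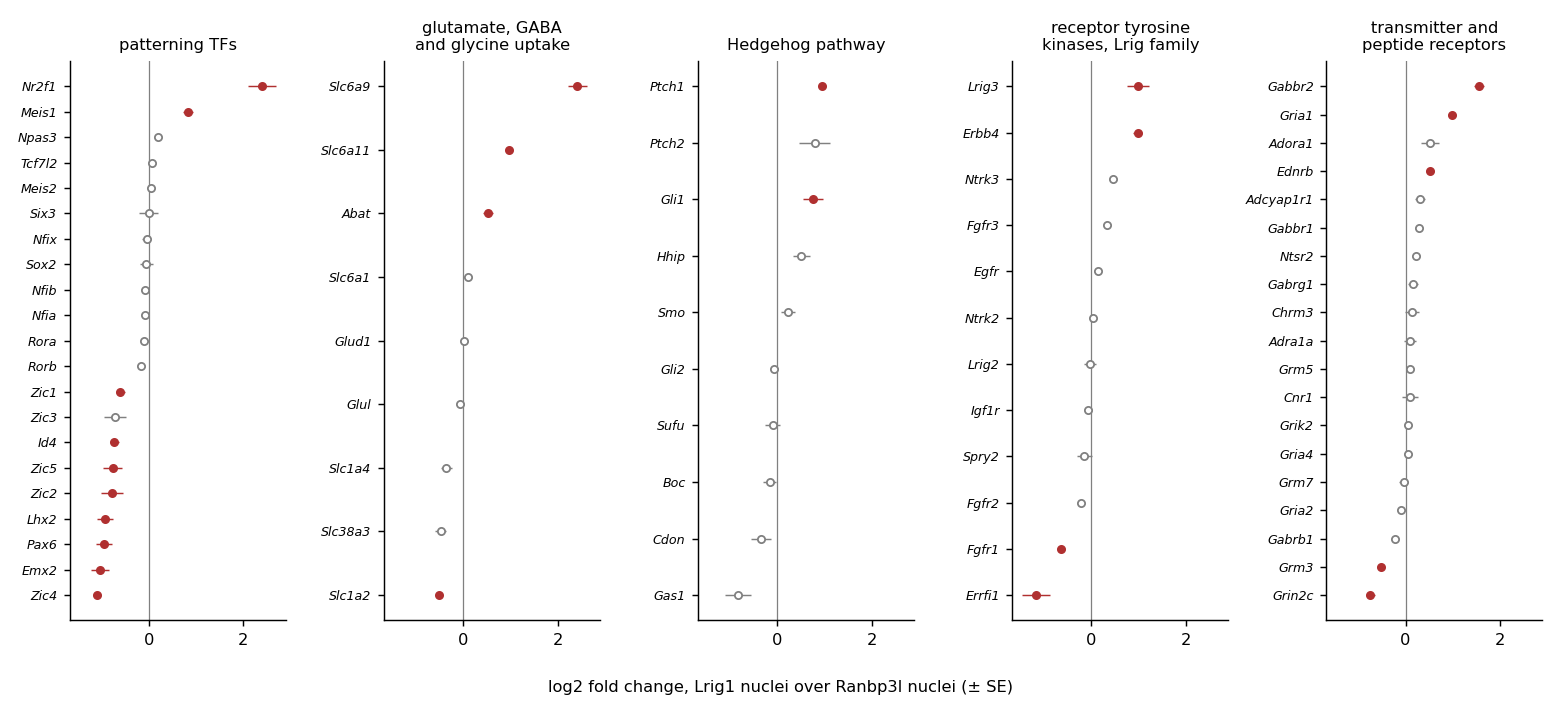
Log2 fold change of Lrig1 over Ranbp3l nuclei for tested genes of 5 lists (1 uncalled transcription factor is not shown), with SE as horizontal lines; filled circles were called and open circles were not. Nr2f1 and Slc6a9 lie farthest right at 2.39 and 2.42, and Zic4 farthest left among the transcription factors at -1.104.

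Fry was higher in Lrig1 nuclei of all 4 libraries (1.46 ± 0.07, edgeR adjusted p = 2.02e-12). Gm2115 (1.47 ± 0.24), Aldh1a1 (1.19 ± 0.20), Dab2 (0.94 ± 0.16) and A830082K12Rik (0.84 ± 0.20) were also called higher. DESeq2 did not call Aldh1a1 or A830082K12Rik, and A830082K12Rik was not called without C57J 2 or BALB/c or with 2 UMIs to place a nucleus. Other named genes on the Lrig1 side were Svep1, Agt, Sfta3-ps, Slc16a6 and Plce1. Agt encodes angiotensinogen, the precursor of angiotensin. It had 59.4, 48.9, 20.1 and 69.3 CPM in Lrig1 nuclei and 11.8, 19.0, 17.6 and 7.89 CPM in Ranbp3l nuclei (2.03 ± 0.27), so that the groups nearly met in nude, and DESeq2 did not call it. Plce1, a phospholipase C, had 338 to 515 CPM in Lrig1 nuclei and 80.1 to 165 CPM in Ranbp3l nuclei (1.59 ± 0.10). Svep1, which encodes an extracellular matrix protein, was higher by 2.12 ± 0.36, and Slc16a6, a monocarboxylate transporter gene, by 1.60 ± 0.31. The transcript Sfta3-ps, which lies beside Nkx2-1 on chromosome 12, was higher by 1.88 ± 0.23. Nkx2-1 itself had 16, 13, 12 and 11 UMIs over all chosen nuclei of the libraries and did not pass the filter on low counts.

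Lama3 led the Ranbp3l side. It encodes the alpha-3 chain of laminin, a protein of basement membranes. Its level in Ranbp3l nuclei was 75.8, 76.2, 553 and 226 CPM, and in Lrig1 nuclei 18.5, 29.4, 147 and 65.0 CPM. The difference of -1.83 ± 0.11 (edgeR adjusted p = 8.23e-11) held within each library, although the level in nude and BALB/c was above that in C57J in both groups. Hs3st3a1, which encodes a heparan sulfate sulfotransferase, showed the same layout, with 44.3, 30.2, 131 and 192 CPM in Ranbp3l nuclei and 13.1, 9.79, 53.6 and 53.6 CPM in Lrig1 nuclei (-1.66 ± 0.15, edgeR adjusted p = 2.10e-08). Pdzrn3, a ubiquitin ligase gene, differed by -1.40 ± 0.18 and Thrsp, a gene tied to fatty acid synthesis, by -1.33 ± 0.17, both lower in Lrig1 nuclei of all 4 libraries.

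Among the other called genes on the Ranbp3l side, Hgf, the hepatocyte growth factor gene, had 26.6, 22.2, 31.3 and 43.4 CPM against 6.94, 9.79, 21.2 and 11.4 CPM in Lrig1 nuclei (-1.48 ± 0.26). Chrdl1, which encodes a BMP antagonist that astrocytes release to mature synapses, differed by -1.22 ± 0.22. Lpar4 (-1.45 ± 0.31), Tfcp2l1 (-1.36 ± 0.23), 4930594M22Rik (-1.75 ± 0.28) and Fam129b (-1.30 ± 0.30) completed the named genes, and Lpar4, 4930594M22Rik and Fam129b were not called without BALB/c, nor was Lpar4 without C57J 1. Apod, which encodes apolipoprotein D, was called at -1.39 ± 0.24, with 31.5, 49.2, 39.1 and 256 CPM in Ranbp3l nuclei and 24.7, 39.2, 32.4 and 53.2 CPM in Lrig1 nuclei. It was not called without BALB/c, without the nuclei carrying fibroblast genes or by DESeq2.

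The lists that follow stand beside 3.04% of all genes tested called, 1.47% higher and 1.57% lower, so that a count of 0 or 1 in a short list is near the background. None of 16 lipid and cholesterol genes, 16 tested immune and cytokine genes or 9 tested potassium, ion and gap junction genes was called, with list medians of -0.01, 0.09 and 0.17. Kcnj10, the inward rectifier that clears potassium, differed by 0.32 ± 0.10. Sparc, a matrix protein gene that astrocytes use to restrain synapse formation, was the higher of 2 called genes among 15 tested synapse-organising genes, at 180, 109, 141 and 255 CPM in Lrig1 nuclei and 95.4, 44.4, 52.8 and 117 CPM in Ranbp3l nuclei (1.12 ± 0.11, edgeR adjusted p = 1.18e-07), and Chrdl1 was the lower. Of 7 tested fibrous and reactive genes, Id3 (1.27 ± 0.34) was higher and Thbs4 (-1.35 ± 0.28) lower in Lrig1 nuclei. Thbs4 had 10.02, 16.8, 5.58 and 6.65 CPM against 32.5, 44.4, 3.91 and 16.8 CPM, so nude went the other way. Neither gene was called without C57J 1, nor Id3 without BALB/c. Gfap, the filament gene of fibrous astrocytes, had 36.2, 20.98, 21.2 and 48.9 CPM in Lrig1 nuclei and 44.3, 54.0, 15.6 and 9.87 CPM in Ranbp3l nuclei, with no shared direction across libraries (0.26 ± 0.31). Of 12 tested BMP and Smad genes, Id3 alone was called. From the 6 genes the study prints for tight junctions and lamellipodia, Cdh20, a cadherin gene, was higher in Lrig1 nuclei, at 600, 503, 443 and 530 CPM against 372, 419, 199 and 245 CPM (0.78 ± 0.10, edgeR adjusted p = 1.26e-05). The other 5 were not called, and Vegfa differed by 0.07 ± 0.10. After thinning to 1000 UMIs, which left 2411 genes tested, Zic4, Zic1, Id4, Meis1, Sparc, Fgfr1, Grin2c, Grm3, Ednrb and Abat were tested and not called.

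Whether the difference between Lrig1 and Ranbp3l nuclei was the same in both backgrounds was tested as an interaction. Of 10751 genes, 4 (0.0372%) were called by edgeR, 2 (0.0186%) with a larger Lrig1 to Ranbp3l ratio in nude and BALB/c and 2 (0.0186%) with a smaller one, while 559 had an unadjusted p below 0.05. None of the genes named above for the regional difference was among them. A small count here does not show that the regional difference was alike in the backgrounds, since each has 2 libraries. The 4 genes were Fam163a, Rimbp2, Bmp6 and Colec12, and all lost their calls without the BALB/c library.

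Compared with astrocytes that met the same 5-gene rule and had at least 1 Dkk3 UMI (398, 196, 236 and 796 nuclei), the astrocytes without Dkk3 differed in 165 of 13046 genes tested (1.26%). Of these, 59 (0.452%) were higher and 106 (0.813%) lower without Dkk3. The count was 41 without BALB/c, 51 by DESeq2 and 16 after thinning to 1000 UMIs, where 12 were higher and 4 lower. Of the 165 main calls, 131 had the same direction in all 4 libraries. Among tested genes that were not Y-linked or Xist, 2254 of 13039 (17.3%) did. As above, such agreement is no separate evidence. Dkk3 chose the groups and has no test, and the median depth with Dkk3 was 2937, 2213, 2463 and 4541 UMIs, above that without it in each library. The neuronal list summed to 4048, 3702, 4687 and 2590 CPM with Dkk3, near the 3688, 4122, 4905 and 2349 CPM without it. The ependymal list, led by Dnah12 in nude and by Rarres2 in the other libraries, summed to 39.2, 17.3, 87.5 and 21.4 CPM with Dkk3 and to 22.0, 36.1, 15.3 and 15.9 CPM without it. Of the ependymal list, 3 genes were tested and none called, with a list median of -1.05 against 0.00 over all genes. The part of ependymal RNA was not tested.

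Lower without Dkk3 were genes with Veph1 at their head. Veph1 encodes a pleckstrin homology protein. It had 4.96, 4.64, 12.5 and 7.40 CPM without Dkk3 and 11.5, 30.3, 43.7 and 65.3 CPM with it (-2.47 ± 0.21, edgeR adjusted p = 6.29e-09). Adamts18, a secreted metalloprotease gene, had 20.5, 30.1, 10.9 and 3.17 CPM against 29.2, 73.6, 26.6 and 40.7 CPM (-1.67 ± 0.25), and its gap was widest in BALB/c. Drd3, the dopamine D3 receptor gene, had 11.6, 12.2, 7.17 and 2.29 CPM against 22.3, 34.7, 12.5 and 14.6 CPM (-1.47 ± 0.24, edgeR adjusted p = 1.48e-04), lower in all 4 libraries but not called without BALB/c. Lrriq1, Togaram2, Pter, Pawr, C230072F16Rik, Gm29260 and Thbs4 made up the other named genes, at -1.34 to -2.22. Thbs4, a thrombospondin gene, had 21.6, 34.1, 7.48 and 7.58 CPM without and 42.2, 39.0, 25.0 and 37.9 CPM with Dkk3 (-1.35 ± 0.20), and at 1000 UMIs a nucleus its direction turned (0.13). Of 10 tested fibrous and reactive genes, Id3, Thbs4 and Vim were lower and none higher, where 0.813% of all genes tested were lower, and the list median was -0.55 against 0.00 over all genes. None of the 3 was called without BALB/c, nor Id3 without C57J 1 or nude.

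**Figure D4:**
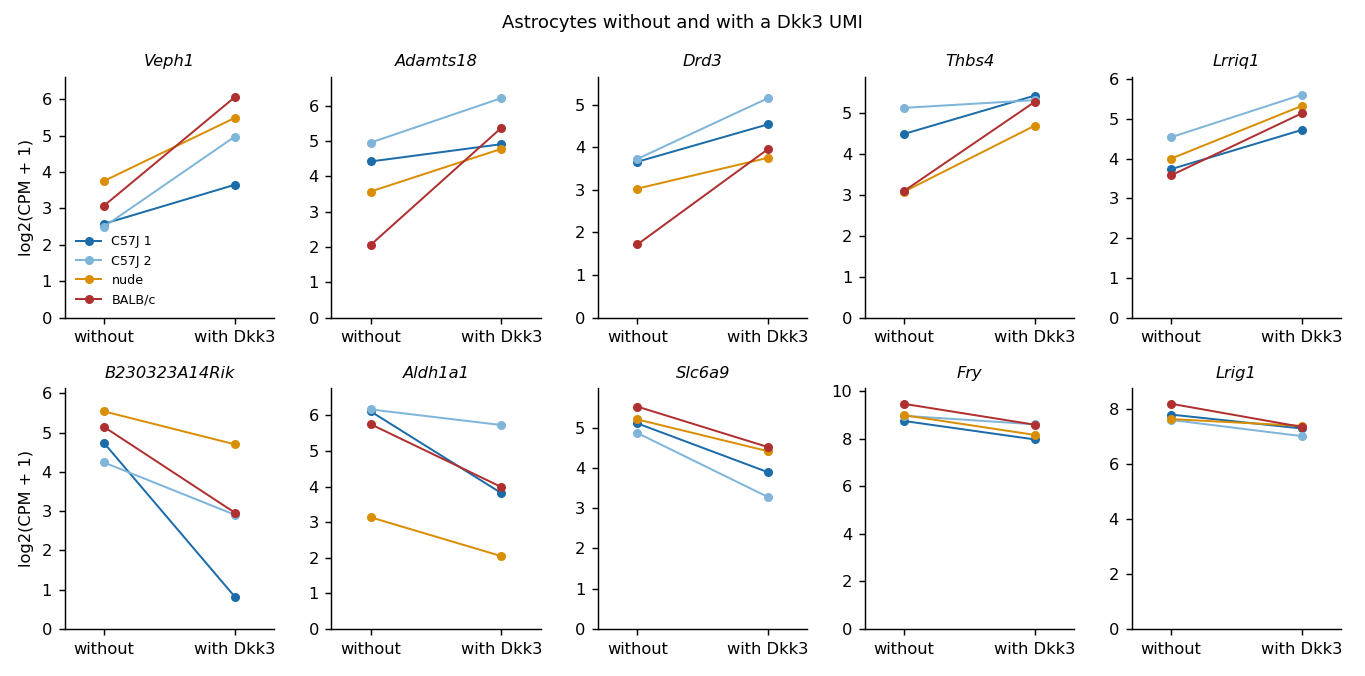
Level, as log2(CPM + 1), of 10 called genes in astrocytes without a Dkk3 UMI (left of each panel) and with at least 1 (right), with 1 line per library. Upper row, genes lower without Dkk3 such as Veph1 at -2.47; lower row, genes higher without Dkk3 such as B230323A14Rik at 2.13.

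Higher without Dkk3 were several of the genes that also marked Lrig1 nuclei, which is given side by side because the comparisons share nuclei. Id3 went the other way, called higher in Lrig1 nuclei (1.27 ± 0.34) and lower without Dkk3. Agreement between the comparisons was not tested. B230323A14Rik had 25.6, 17.9, 45.5 and 34.4 CPM without Dkk3 and 0.768, 6.50, 25.0 and 6.79 CPM with it (2.13 ± 0.24, beside 4.41 in the regional comparison). Slc6a9 had 33.4, 28.1, 35.8 and 44.9 CPM against 13.8, 8.66, 20.3 and 21.9 CPM (1.12 ± 0.15, beside 2.42). Shisa9 differed by 0.72 ± 0.09, Gabbr2 by 0.55 ± 0.08, Gria1 by 0.50 ± 0.06, Meis1 by 0.71 ± 0.09 and Agt by 1.04 ± 0.16, and Agt stood at -0.0179 at 1000 UMIs a nucleus. Without BALB/c, Gabbr2, Gria1 and Agt were not called. Lrig1 had 221, 193, 197 and 290 CPM without Dkk3 and 155, 128, 166 and 161 CPM with it (0.64 ± 0.08, edgeR adjusted p = 3.49e-06), and it was not called without BALB/c or after thinning. Ranbp3l had 145, 151, 126 and 176 CPM against 126, 134, 105 and 161 CPM (0.19 ± 0.07) and was not called. Aldh1a1, which makes retinoic acid, had 68.1, 70.8, 7.79 and 52.9 CPM without Dkk3 and 13.1, 52.0, 3.12 and 14.8 CPM with it (1.71 ± 0.18, edgeR adjusted p = 2.96e-07). Its level was lowest in nude in both groups, and DESeq2 did not call it. Fry (0.77 ± 0.07), Dab2 (0.75 ± 0.12), Gm2115 (1.01 ± 0.19) and A830082K12Rik (1.09 ± 0.17) were the remaining named genes, of which Gm2115 and A830082K12Rik were not called without BALB/c. The limit on reads from overlapping strands given above holds for B230323A14Rik and A830082K12Rik. DESeq2 did not call B230323A14Rik, Adamts18, Gm2115 or A830082K12Rik in this comparison.

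Of the 20 gene lists, 10 held at least 1 called gene between astrocytes without and with Dkk3. Of 25 tested patterning transcription factors Meis1 alone was called, beside 1.26% of all genes tested. None of 12 astrocyte identity genes, 16 lipid genes or 19 tested immune genes was called. Kcnj16, a potassium channel gene, was 0.56 ± 0.15 higher without Dkk3, in 2 of 4 libraries, and not without C57J 1 or BALB/c. Top2a, a gene of dividing cells, was lower (-1.44 ± 0.33), at 5.39, 5.96, 5.30 and 2.64 CPM against 8.45, 0, 20.3 and 13.8 CPM, and not without nude or BALB/c. Of the Hedgehog list Cdon, a co-receptor gene, was lower (-0.69 ± 0.13), at 32.5, 28.5, 35.8 and 18.0 CPM against 46.1, 58.5, 71.8 and 26.4 CPM, and no other member was called. Lrig3 and Cdh20 were higher by 0.63 ± 0.16 and 0.51 ± 0.07, neither of them without BALB/c, nor Lrig3 without nude.

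Between backgrounds, the astrocytes without Dkk3 of nude and BALB/c were set against those of C57J, the comparison the study made for all astrocytes. edgeR called 20 of 13776 genes (0.145%), 5 (0.0363%) higher and 15 (0.109%) lower in nude and BALB/c, and 1026 had an unadjusted p below 0.05. One called gene is Y-linked and is not described. Strain, immune state and, for C57J 1, batch cannot be told apart here, and in bulk sums of nuclei a change in the kinds of astrocyte and a change in level per nucleus cannot be told apart either. Within batch 2 (C57J 2 against nude and BALB/c) every call was lost. The log2 differences of Cxcl5, Pttg1, Rpe65 and Gm48606 were then -5.06, -4.83, -2.85 and 5.53, to be set beside those given below. C57J has 1 library there, so the spread and the SEs come from nude against BALB/c alone and C57J 2 is assumed to vary like them.

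Kcnk1, which encodes the 2-pore potassium channel TWIK-1 of astrocytes, had 76.9 and 59.9 CPM in the C57J libraries and 12.2 and 12.7 CPM in nude and BALB/c (-2.39 ± 0.21, edgeR adjusted p = 0.0203). It was the only called gene of all lists in this comparison. Apart from the loss of every call without C57J 1, Kcnk1, Rpe65 and 4930481A15Rik were not called without predicted doublets, Pttg1, Rpl29, Rpe65, 1500004A13Rik and 4930481A15Rik not without C57J 2, and of the named lower genes Fam163a alone was called after thinning. Fam163a had 54.7 and 59.3 CPM in C57J and 6.54 and 5.64 CPM in nude and BALB/c (-3.16 ± 0.21, edgeR adjusted p = 0.00909, and -3.21 ± 0.28 within batch 2). Cxcl5, a chemokine gene, had 23.1 and 25.2 against 0.935 and 0.529 CPM (-5.01 ± 0.38), Pttg1, the securin gene, 17.7 and 17.9 against 0.623 and 0.529 CPM (-4.83 ± 0.40), and Rpe65, the retinoid isomerase gene, 21.6 and 18.5 against 2.80 and 2.12 CPM (-2.98 ± 0.32). Trim12a had 31.3 and 35.1 CPM in C57J and 0 UMIs in both other libraries, at least 97.0-fold lower with a floor of 3 counts over both libraries. 4930481A15Rik had 13.8 and 13.6 CPM and 0 UMIs, at least 40.6-fold lower. Trim12a, Rpl29 (37.1 and 31.8 against 3.43 and 1.59 CPM) and Cldn34c1 have close copies in the genome, and the values of such genes depend on how reads were assigned. Reads of all libraries were counted against the same reference, mm10, and how well it matched each strain was not tested. Gm17167 (-6.38 ± 0.56) and 1500004A13Rik (-2.66 ± 0.27) were also lower.

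**Figure D5:**
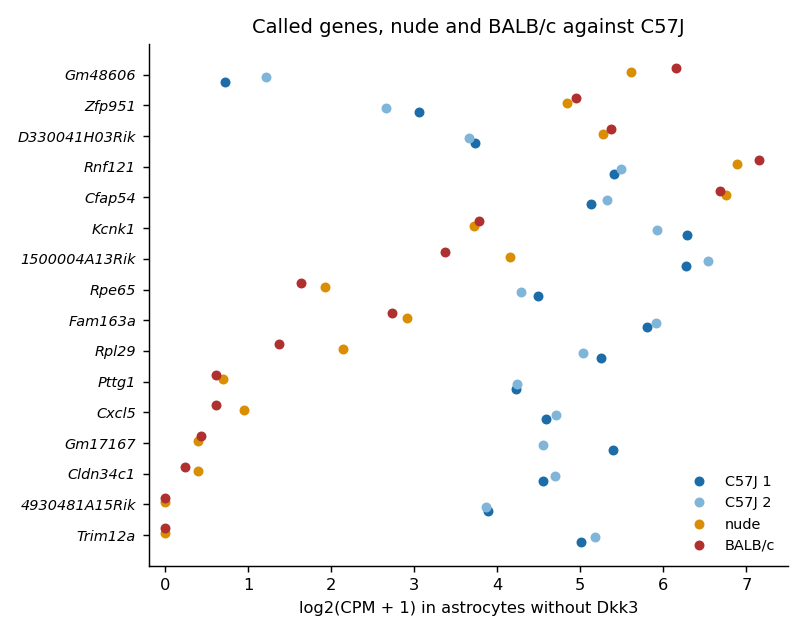
Level, as log2(CPM + 1), of the called genes between backgrounds that the text names, with 1 point per library. The C57J points lie apart from the nude and BALB/c points for each gene, and Trim12a and 4930481A15Rik are at 0 in nude and BALB/c.

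Higher in nude and BALB/c were Gm48606 (0.647 and 1.32 against 47.7 and 70.0 CPM, 6.04 ± 0.41), Zfp951, D330041H03Rik, Rnf121 and Cfap54. Rnf121, a ubiquitin ligase gene, had 41.4 and 44.0 CPM in C57J and 118 and 141 CPM in nude and BALB/c (1.68 ± 0.18, edgeR adjusted p = 0.0370). Cfap54, a gene of the ciliary axoneme, had 34.1 and 39.1 against 107 and 102 CPM (1.59 ± 0.17, edgeR adjusted p = 0.0318). Without C57J 2, without predicted doublets and after thinning to 1000 UMIs, Gm48606 was called and the other 4 were not. Within batch 2 the log2 differences of Rnf121 and Cfap54 were 1.64 ± 0.31 and 1.49 ± 0.27.

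No patterning factor, uptake gene, receptor, Hedgehog gene or immune gene was called between backgrounds, where 0.145% of all genes were called, so that 0 in lists of this size is near the background, and the list medians of these 5 lists lay from -0.05 to 0.17, against -0.01 over all genes tested. Gabbr2, for example, had 254, 253, 261 and 263 CPM. Lama3 and Hs3st3a1, taken up here after their values were seen, had no overlap between backgrounds, as did 5208 of 13769 tested genes (37.8%). Lama3 had 46.8, 49.3, 298 and 136 CPM and Hs3st3a1 25.6, 19.9, 75.1 and 119 CPM. Neither passed the test, with log2 differences of 2.23 ± 0.34 (edgeR adjusted p = 0.0964) and 2.16 ± 0.29 (edgeR adjusted p = 0.0650). None of the 6 genes printed by the study for tight junctions and lamellipodia was called. Their median difference was -0.35, and all 6 had log2 differences below 0, from Vegfa at -0.53 ± 0.20, with 216, 160, 134 and 115 CPM, to Add1 at -0.18 ± 0.15. The study chose these genes on the same libraries, so their common direction is not independent evidence. The marker lists of other cells had medians of -0.41 for oligodendrocytes, -0.37 for their precursors, -0.31 for microglia, -0.73 for ependymal cells, -0.50 for stem and dividing cells, -0.09 for neurons and 0.29 for vascular cells in this comparison. Cdh20 stood at 698, 719, 625 and 869 CPM in oligodendrocytes, above its 441, 430, 289 and 378 CPM in the chosen nuclei. The part of RNA from other cells was not tested. Gfap had 39.9, 31.1, 17.8 and 29.1 CPM and differed by -0.50 ± 0.29.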

How the data were processed

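The deposited files hold UMI counts per gene and nucleus, which the authors made with Cell Ranger 7.0.1 against mm10 from 10x 3' libraries of single nuclei, with no further normalization (102939576, 72912922, 82169638 and 125998527 UMIs in C57J 1, C57J 2, nude and BALB/c). Nuclei with 200 to 6000 genes and under 2% mitochondrial UMIs were kept, as in the study, whose further limits on UMIs were not applied. The rule and the gene lists were chosen with earlier results of these data known. Counts of the chosen nuclei were summed per library and tested with edgeR 4.0.16 (filterByExpr, TMM, quasi-likelihood F test, SE from the log2 fold change and F), with Benjamini-Hochberg adjustment over all genes tested. Calls needed an adjusted p below 0.05 and a log2 fold change beyond 0.5. The steps were tested on simulated data. Named genes were the 10 called genes with the largest log2 fold change in each direction (in the regional and Dkk3 comparisons among those with at least 20 CPM in the higher group and the same direction in all 4 libraries, in the strain comparison and interaction among those without overlap between backgrounds), the study's astrocyte genes, and members of the lists. Alternatives were DESeq2 1.42.0, its size factors, no filter, the adjusted p alone, each library left out, predicted doublets left out (highest scores of Scrublet in scanpy 1.11.5, 0.8% per 1000 nuclei), stricter quality limits, thinning to 1000 UMIs, 2 UMIs to place a nucleus and, added after seeing the data, nuclei with fibroblast genes left out. Doublets were kept in the main results. Positions are from GENCODE M21 (GRCm38), matched by Ensembl ID. Pooled libraries are the replicates. Between backgrounds, the p-values rest on the spread between the C57J libraries, of different batches, and between nude and BALB/c, of different genotype. That is not the spread between like pools. In the other comparisons they rest on how the difference within a library varied between libraries. Single values of some list members are not reported here.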

Additional observations from a re-analysis of the deposited data

Results flagged for a closer look

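The difference between Lrig1 and Ranbp3l nuclei was larger or smaller in nude and BALB/c than in C57J for 4 genes, by the edgeR interaction test with Benjamini-Hochberg adjustment. Bmp6, a BMP ligand gene, had a log2 difference of -3.25 ± 0.60 (adjusted p = 0.0400), with 9.84, 14.3, 19.5 and 129 CPM in Ranbp3l nuclei and 8.48, 9.79, 4.47 and 8.54 CPM in Lrig1 nuclei in the order C57J 1, C57J 2, nude, BALB/c. Colec12, a scavenger receptor gene, had -2.57 ± 0.37 (adjusted p = 0.00325), with 23.6, 20.6, 37.1 and 118 CPM in Ranbp3l nuclei and 60.1, 57.3, 34.6 and 39.9 CPM in Lrig1 nuclei. None of the 4 was called without the BALB/c library. Bmp6 and Colec12 stood highest in the Ranbp3l nuclei of BALB/c, of which 12 of 216 carried fibroblast genes, Bmp6 among them. Without those nuclei Colec12 differed by -0.61 and Bmp6 was not tested.

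Fam163a had 4.60 ± 0.83 (edgeR adjusted p = 0.0339), with 66.9, 82.5, 1.95 and 0 CPM in Ranbp3l nuclei and 40.9, 47.5, 13.4 and 9.49 CPM in Lrig1 nuclei. In nude and BALB/c the Ranbp3l values rested on 1 and 0 UMIs. Rimbp2, a presynaptic scaffold gene, had 2.03 ± 0.33 (edgeR adjusted p = 0.0096), with 41.3, 58.7, 44.9 and 25.7 CPM in Ranbp3l nuclei and 40.1, 46.1, 123 and 110 CPM in Lrig1 nuclei. Without predicted doublets Colec12 alone was called. Bmp6 was not called without C57J 1, nor Fam163a with 2 UMIs to place a nucleus. DESeq2 called none of the 4 and gave 21 genes an unadjusted p below 0.05. No group held 4 libraries, so single libraries were not tested as outliers.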

How the results depend on the processing

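The regional comparison called 298 genes. DESeq2 called 153, all among them, and gave 4184 of 9802 genes no adjusted p (3037 of 13046 in the comparison with Dkk3), which therefore could not be called. The adjusted p alone gave 480, thinning to 1000 UMIs 60 of 2411 tested, and leaving out 1 library 235 to 302. Between astrocytes without and with Dkk3, 165 were called, against 51 by DESeq2, 359 by the adjusted p alone, 373 with 2 UMIs to place a nucleus, 16 after thinning and 41 to 206 without 1 library, the lowest without BALB/c. Under thinning, 75% of the calls were higher against 35.8%, Agt turned to -0.0179 and Thbs4 to 0.13. Between backgrounds, 20 were called, against 81 by DESeq2, 404 with no filter on low counts, 11 without predicted doublets, 2 after thinning and 0 to 271 without 1 library (0 without C57J 1, with 482 genes at an unadjusted p below 0.05, 7 without C57J 2, 271 without nude and 39 without BALB/c). The interaction called 4, against 0 by DESeq2 (21 genes at an unadjusted p below 0.05), 18 with no filter, 1 without predicted doublets, 0 after thinning (157 at an unadjusted p below 0.05) and 1 to 64 without 1 library. The cause of these changes was not tested, except that thinning leaves fewer genes and counts. Higher calls between backgrounds were 25% of all, against 55.6% by DESeq2 and 52.0% with no filter, and those without Dkk3 49.6% by the adjusted p alone and 49.1% with 2 UMIs. The log2 ratio of the share of astrocytes without Dkk3 was -0.07, 0.31 after thinning, and -0.15 to 0.01 without 1 library. That of nuclei with Lrig1 only was 0.30, and 0.0203 to 0.53 without 1 library, 0.0203 being without BALB/c. That of nuclei with Ranbp3l only was -0.17, -0.0267 with 2 UMIs to place a nucleus, and -0.27 to -0.07 without 1 library. Without the nuclei carrying fibroblast genes, 294, 159, 20 and 3 genes were called. No paired analysis was possible because nude and BALB/c have 1 library each and the numbers of the C57J libraries pair them with neither, and within libraries the library was already a block.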

Other observations

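Nuclei with both Lrig1 and Ranbp3l, and nuclei with neither, were in no comparison. Their levels are given for 4 genes chosen for their difference between Lrig1 and Ranbp3l nuclei, so that values between those groups are no result. Plce1 had 312, 218, 180 and 268 CPM in nuclei with both and 221, 211, 185 and 199 CPM in nuclei with neither, in C57J 1, C57J 2, nude and BALB/c. Gabbr2 had 314, 233, 248 and 182 CPM with both and 196, 246, 228 and 172 CPM with neither. Lama3 had 41.3, 64.4, 328 and 147 CPM with both and 52.1, 45.5, 296 and 171 CPM with neither. B230323A14Rik had 20.7, 19.8, 4.00 and 23.0 CPM with both and 20.1, 15.6, 38.7 and 6.74 CPM with neither.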
